A study of Mus musculus with 2 samples.

Results

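Complement is the cascade of plasma proteins that marks microbes and damaged cells, recruits leukocytes and punches pores in membranes, and hepatocytes make most of its components. The accessible chromatin of 9 complement component genes was examined here in mouse liver: C3, Cfb, C4b, Mbl2, Masp1, Hc (which encodes complement C5), C8a, C8b and C9. A region of open chromatin belonged to one of these genes when the transcription start site (TSS) closest to it, as the authors annotated it, was that of the gene, and each region was used once. This gave 25 of the 69549 distinct regions. Of these, 10 were promoter regions, with their centre within 1000 bp of the TSS, and 15 lay farther away. All 9 genes had at least 1 promoter region, and C9 had 2.

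The assay was ATAC-seq, in which the Tn5 transposase cuts open DNA and inserts sequencing adaptors, so that read counts over a stretch of DNA rise with its accessibility. One library came from Mettl3 flox/flox livers and the other from livers of Mettl3-HKO mice, which carry the same floxed alleles together with Alb-Cre+/-, a Cre recombinase driven by the albumin promoter in hepatocytes. Both were C57BL/6 mice on normal chow at 8 weeks of age, and the livers of 4 mice were pooled for each library. Since each group is a single pool, the spread between animals is unknown and the genotype could not be tested. The intervals given are exact 95% Clopper-Pearson intervals that cover counting error only. Because whole liver was used, fewer cells of a type and less open chromatin per cell cannot be told apart.

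Library totals recovered from the deposited values were 52826209 reads for Mettl3 flox/flox and 58038309 for Mettl3-HKO, and 31.7% and 22.3% of them lay in regions. The log2 ratio of Mettl3-HKO to Mettl3 flox/flox, scaled by these totals, had a median of −0.38 over all regions and −0.56 over the 14387 promoter regions. Each direction given on this scale was checked after 3 other scalings, which shift every ratio upwards. They set the median of all regions to 0 (a shift of 0.38), set the median of the promoter regions with the strongest 10% of signal to 0 (0.65), or use the reads in regions as the total (0.51). The promoter of Mettl3 itself had 566 and 392 counts, which does not report the deletion of its exons. Promoter regions of the hepatocyte marker list were present for 8 of 8 genes.

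In the complement cascade, the lectin pathway starts with mannose-binding lectin and its proteases, the classical pathway with C1, and the alternative pathway with C3 and factor B. All converge on C3, whose cleavage leads to the cleavage of C5 and to assembly of the membrane attack complex from C5b, C6, C7, C8 and C9. At the promoters of the 9 genes, 8 of 10 regions had fewer reads per library total in Mettl3-HKO (83.9% of all promoter regions) and 2 had more. Their log2 ratios ran from −0.91 to 0.42 with a median of −0.48, against −0.56 for all promoter regions. This direction depends on the scaling. With the median of all regions set to 0, 7 of the 10 were below 0 (66.4% of all promoter regions). With that of the strongest 10% of promoter regions set to 0, 4 of the 10 were below 0 (41.7%). With reads in regions as the total, 4 of the 10 were below 0 (55.0%). None of the 10 was at least 2-fold lower (all promoter regions, 16.3%) and none was at least 2-fold higher (4.07%). The counting interval lay below 0 for 5 of the 10 (72.4% of all promoter regions), those of C3, Cfb, C4b, Masp1 and the C9 region at its TSS, and above 0 for none (8.08%). After the other scalings in the order given, it lay below 0 for 4, 1 and 2 of the 10 (46.0%, 23.3% and 34.0% of all promoter regions) and above 0 for 2, 3 and 2 (17.6%, 35.7% and 25.1%).

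**Figure D1:**
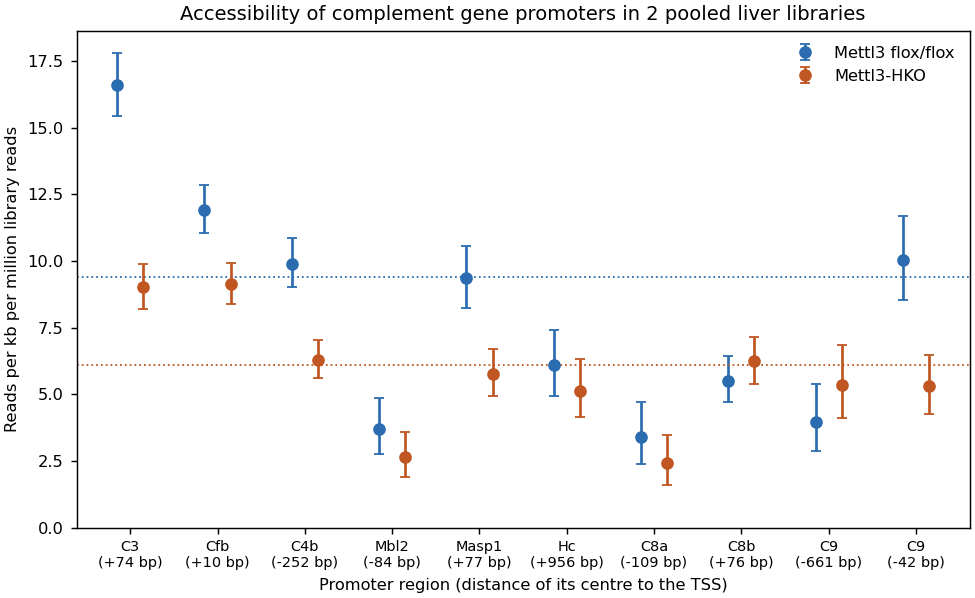
RPKM, the reads per kb of region and per 1000000 library reads (y axis), at the 10 promoter regions (x axis, with the distance of the region's centre to the TSS) in the Mettl3 flox/flox library and the Mettl3-HKO library; bars are exact 95% Poisson intervals of the counts and dotted lines are the medians of all promoter regions in each library, 9.40 and 6.10. C3 was the most open of the 10 in Mettl3 flox/flox, at 16.6, and stood at 9.01 in Mettl3-HKO beside Cfb at 9.13.

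Levels per kb of region differed between genes. In the Mettl3 flox/flox library the order was C3 at 16.6 RPKM (reads per kb of region per 1000000 library reads), Cfb at 11.9, C9 at its TSS at 10.02, C4b at 9.90, Masp1 at 9.36, Hc at 6.08, C8b at 5.51, the upstream C9 region at 3.98, Mbl2 at 3.70 and C8a at 3.41. Only C3 and Cfb, and Masp1 and Hc, were neighbours in this order whose counting intervals did not overlap. In the Mettl3-HKO library Cfb and C3 led together at 9.13 and 9.01, and C8b, at 6.23, took the fourth place. Only C3 and C4b, and Hc and Mbl2, were neighbours here whose counting intervals did not overlap, so the place of C8b was not resolved. Mbl2 at 2.64 and C8a at 2.41 were again the least open. The promoters of the pore-forming chain gene C8a and of the lectin Mbl2 thus had few reads in both libraries, 36 and 28 counts for C8a and 51 and 40 for Mbl2.

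C3, the central component cleaved by every activation route, had the largest count of the 9 genes in Mettl3 flox/flox. Its promoter region, chr17:57227631-57228494 (GRCm38), spans the start of the gene from intergenic sequence into intron 1. It had 757 counts in Mettl3 flox/flox and 452 in Mettl3-HKO, giving a log2 ratio of −0.88 (interval −1.05 to −0.71). Of the 9 comparisons of another promoter region with it, 4 had a difference in log2 ratio whose interval lay above 0 (Cfb, Hc, C8b and the upstream C9 region) and 5 had an interval that included 0 (C4b, Masp1, Mbl2, C8a and C9 at its TSS), so its place among the latter was not resolved. Its interval was the one among the 10 that lay wholly below the median of all promoter regions. The C3 ratio was at the 23.0th percentile of all promoter regions. The share of them whose difference from C3 has an interval above 0 was not computed. The 3 regions upstream of C3 were lower in Mettl3-HKO as well. At 2718 bp upstream counts went from 379 to 232, giving a log2 ratio of −0.84 (interval −1.09 to −0.60). At 5107 bp upstream they went from 506 to 354, giving a log2 ratio of −0.65 (interval −0.85 to −0.45), and at 8162 bp, inside Gpr108, from 94 to 66, giving a log2 ratio of −0.64 (interval −1.12 to −0.18). The upstream regions differed from the promoter by 0.036 to 0.23 in log2 ratio, with intervals that all included 0. The most distant of them moved above 0 after centring on the strongest promoter regions, while the promoter and the regions at 2718 and 5107 bp stayed below 0 under each scaling.

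The sequences upstream of 3 starts are shown because they stand for a low and the highest ratio at a TSS and for the deepest counts in Mettl3 flox/flox. They are from RefSeq on GRCm38.p6, which held promoter sequences for 6 of the 9 genes, and each runs 5′ to 3′ on the strand of its gene and ends just before the TSS. Capitals mark letters matching C/EBP (TTGCNNAA), HNF1 (GTTAAT) or HNF4 (CAAAGTNCA) motifs on either strand, factors known for hepatocyte and acute phase genes.
C3, chr17:57228137-57228386, minus strand: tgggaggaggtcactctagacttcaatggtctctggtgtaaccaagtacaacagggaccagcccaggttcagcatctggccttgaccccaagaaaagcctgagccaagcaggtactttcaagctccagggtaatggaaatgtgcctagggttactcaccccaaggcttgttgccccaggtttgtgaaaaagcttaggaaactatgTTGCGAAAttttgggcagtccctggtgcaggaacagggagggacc
C8b, chr4:104766067-104766316, plus strand: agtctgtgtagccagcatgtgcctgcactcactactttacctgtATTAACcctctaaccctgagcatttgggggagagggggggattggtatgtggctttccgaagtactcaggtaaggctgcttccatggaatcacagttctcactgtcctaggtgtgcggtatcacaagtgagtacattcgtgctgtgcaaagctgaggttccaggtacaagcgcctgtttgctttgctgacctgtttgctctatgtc
C9, chr15:6445096-6445326, plus strand: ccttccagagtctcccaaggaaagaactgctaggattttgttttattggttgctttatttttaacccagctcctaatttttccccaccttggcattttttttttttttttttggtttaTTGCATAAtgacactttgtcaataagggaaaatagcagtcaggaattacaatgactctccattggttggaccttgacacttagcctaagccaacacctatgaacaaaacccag

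All 250 bases of the C3 sequence, 199 of the 250 of C8b and 194 of the 231 of C9 lay inside the regions counted. C3 held the C/EBP letters TTGCGAAA from 45 to 38 bases before the TSS, and C9 held TTGCATAA from 113 to 106 bases before it. Of the 32851 RefSeq promoters, 9.56% held a C/EBP match in the 250 bases before the start. C8b held the HNF1 letters on the opposite strand from 206 to 201 bases before its TSS, as 6.43% of promoters did on either strand, and also 2 copies of the FOXA letters TGTTTNC (17.8% of promoters), which are not in capitals. No HNF4 match was in these 3 sequences (1.19% of promoters). A search for STAT (TTCNNNGAA, 7.02% of promoters), NF-kB (GGGANTTTC, 0.941%) and TATA box letters (with TATAAA spelled out, 12.4%) gave no match in the 3 either. These are matches of letters and not evidence of binding.

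Cfb encodes factor B, which joins C3b to form the alternative pathway convertase. Its promoter region, chr17:34861980-34863036, had 666 counts in Mettl3 flox/flox and 560 in Mettl3-HKO, giving a log2 ratio of −0.39 (interval −0.55 to −0.22). Relative to C3 the ratio was higher by 0.49 (interval 0.26 to 0.73), a difference that does not depend on the scaling. The same region also lies in intron 13 of Gm20547 and touches the last intron of C2, so it is not specific to Cfb. Its ratio stood at −0.0080 after centring on all regions and above 0 after the other 2 scalings.

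C4b encodes the C4 protein of the classical and lectin convertase. Its region, chr17:34743703-34744566, centred 252 bp upstream of the TSS, had 452 and 316 counts, giving a log2 ratio of −0.65 (interval −0.86 to −0.44). Reads at C4b are less certain than the others, since C4a is a near-identical copy in the same cluster and the loss or sharing of reads between them was not tested. Inside C4b, a region in introns 34 and 35 (90 and 67 counts) and another at its 3′ end (248 and 172 counts) had log2 ratios of −0.56 and −0.66, close to that of the promoter, although the closest TSS was another gene's.

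Masp1, a protease that activates the lectin pathway with mannose-binding lectin, had 1 region closest to its TSS, chr16:23520254-23520773. It overlaps the start of Rtp4 as well, and its 257 counts in Mettl3 flox/flox and 174 in Mettl3-HKO gave a log2 ratio of −0.70 (interval −0.98 to −0.42). A peak was called there in the Mettl3 flox/flox library only. A further 11 regions lay inside Masp1 but were closest to the TSS of Rtp4 or Rtp1, with ratios from −0.80 to 0.50 and a median of −0.21. Of these, 8 were below 0 on the scale of library totals, and 3, 2 and 3 after the other scalings. The strongest was in intron 1, 2706 bp from the Masp1 TSS, with 433 and 273 counts and a log2 ratio of −0.80 (interval −1.03 to −0.58). The most distant one, in intron 13, had 55 and 86 counts and a log2 ratio of 0.50 (interval 0.0043 to 1.02). The nearest one, in intron 1 and 995 bp from the Masp1 TSS, had 100 and 113 counts and a peak in Mettl3-HKO only. Its log2 ratio was 0.039 (interval −0.36 to 0.44), so lower counts did not hold all over the first 1000 bp of Masp1.

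Mbl2, a mannose-binding lectin that recognises sugars on microbes, was higher in Mettl3-HKO at 2 upstream regions and not at its promoter. The promoter region, chr19:30232714-30232974, had 51 and 40 counts, giving a log2 ratio of −0.48 with an interval from −1.12 to 0.14, so no difference was detectable at this depth. At 3235 bp upstream, chr19:30229458-30229929, counts were 74 in Mettl3 flox/flox and 182 in Mettl3-HKO, giving a log2 ratio of 1.15 (interval 0.77 to 1.57), or 2.22-fold higher. This was the one region of the 15 beyond 1000 bp that was at least 2-fold higher (15.6% of all such regions), and none was at least 2-fold lower (18.8%). With the other scalings 2, 4 and 4 of the 15 were at least 2-fold higher, beside 23.5%, 30.2% and 26.7% of all such regions. At 10010 bp upstream, chr19:30222610-30223227, they were 108 and 182, giving a log2 ratio of 0.61 (interval 0.27 to 0.97). The upstream pair stayed above 0 under each scaling, and a peak was called at both in each library. Relative to the promoter of Mbl2 the ratios were higher by 1.64 (interval 0.89 to 2.41) and 1.10 (interval 0.37 to 1.83). A region 8819 bp downstream had 41 and 38 counts and did not differ detectably from the promoter, with a difference of 0.24 (interval −0.70 to 1.18). Regions beyond 1000 bp with a mean signal like that of the upstream pair had a median log2 ratio of −0.48.

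Hc encodes C5, the precursor of the C5a anaphylatoxin and of C5b, on which the pore is built. Its promoter region, chr2:35060330-35060634, lay near the edge of the window, 956 bp into intron 1, and none of the 224 bases just upstream of the TSS was inside a region. It had 98 and 91 counts, giving a log2 ratio of −0.24 (interval −0.67 to 0.18), which moved above 0 after each other scaling. A region 2246 bp upstream had 169 and 146 counts, giving a log2 ratio of −0.35 (interval −0.68 to −0.019). This ratio also moved above 0 after each other scaling, to 0.032 after centring on all regions. The region 7917 bp upstream, chr2:35069136-35069575, was higher in Mettl3-HKO, at 76 and 125 counts. Its log2 ratio was 0.57 (interval 0.16 to 1.01), with a difference of 0.82 from the region in intron 1 (interval 0.21 to 1.44). The outer bound of Hc in RefSeq lies 7068 bp farther upstream than the authors' TSS, which puts this region 849 bp before that bound. The RefSeq promoter sequence of Hc, however, holds the 224 bases just upstream of the authors' TSS, so that bound is not the only start in RefSeq. The region in intron 3 had 25 and 32 counts and an interval from −0.58 to 1.04.

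C8a and C8b encode the alpha and beta chains of C8, which inserts into the membrane before C9, and the genes are neighbours on chromosome 4. At C8b, chr4:104766118-104766670, counts were 161 in Mettl3 flox/flox and 200 in Mettl3-HKO, giving a log2 ratio of 0.18 (interval −0.13 to 0.49). It was the one promoter region at a TSS with a ratio above 0, at the 87.7th percentile of all promoter regions, and its interval lay above their median. The ratio was higher than that of C3 by 1.06 (interval 0.70 to 1.41). Promoter regions with a mean signal like that of C8b had a median of −0.53. The other strong regions of C8b did not share this, since intron 2 had 164 and 129 counts (log2 ratio −0.48) and the 3′ end 250 and 178 counts (log2 ratio −0.62). Their log2 ratios differed from that of the C8b promoter by −0.66 (interval −1.12 to −0.19) and by −0.80 (interval −1.23 to −0.38). The direction of both regions changed with the scaling, on which these differences do not depend. A region 40454 bp upstream, inside Dab1, had 35 and 40 counts.

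C8a had 36 and 28 counts at its promoter, chr4:104876393-104876592, giving a log2 ratio of −0.49 with an interval from −1.26 to 0.25, too few to detect a difference of this size. Intron 1, 1558 bp from the TSS, was alike at 61 and 47 counts and a log2 ratio of −0.50 (interval −1.09 to 0.061). The deepest regions of C8a lay inside the gene and were closest to the TSS of Gm17662. These 8 regions ran from −1.03 to 0.53 with a median of −0.22, and the last intron was the one of them below 0 under each scaling. In intron 9, a region with 430 and 413 counts had a log2 ratio of −0.19 and its neighbour with 384 and 387 counts one of −0.12, while a weaker one beside them had 81 and 129 counts and a log2 ratio of 0.53 (interval 0.12 to 0.95). The last intron had 77 and 41 counts, giving a log2 ratio of −1.03 (interval −1.63 to −0.48). 

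C9, whose molecules polymerise into the ring of the membrane attack complex, had promoter regions with ratios on both sides of 0. The region over its TSS, chr15:6445133-6445438, had 162 counts in Mettl3 flox/flox and 94 in Mettl3-HKO, giving a log2 ratio of −0.91 (interval −1.30 to −0.55), which differed from that of C3 by −0.041 (interval −0.46 to 0.37). Its second promoter region, 661 bp upstream at chr15:6444567-6444766, had 42 and 62 counts, giving a log2 ratio of 0.42 (interval −0.16 to 1.03) and a peak in Mettl3-HKO only. The difference of 1.34 between the 2 neighbours had an interval from 0.64 to 2.06. At 2826 bp upstream, chr15:6442391-6442612, counts were 35 and 66, giving a log2 ratio of 0.76 (interval 0.17 to 1.41), again with a peak in Mettl3-HKO only and a difference of 1.70 from the TSS region (interval 0.97 to 2.44). At 6377 bp upstream, in the last intron and 3′ part of Dab2, counts were 117 and 70, giving a log2 ratio of −0.87 (interval −1.33 to −0.44). The ratios of C9 were therefore below, above, above and below 0 in order from the TSS outwards, and these directions held under each scaling. The 2 regions above 0 had a peak only in the library where they were higher, and regions found in this way favour ratios above 0.

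**Figure D2:**
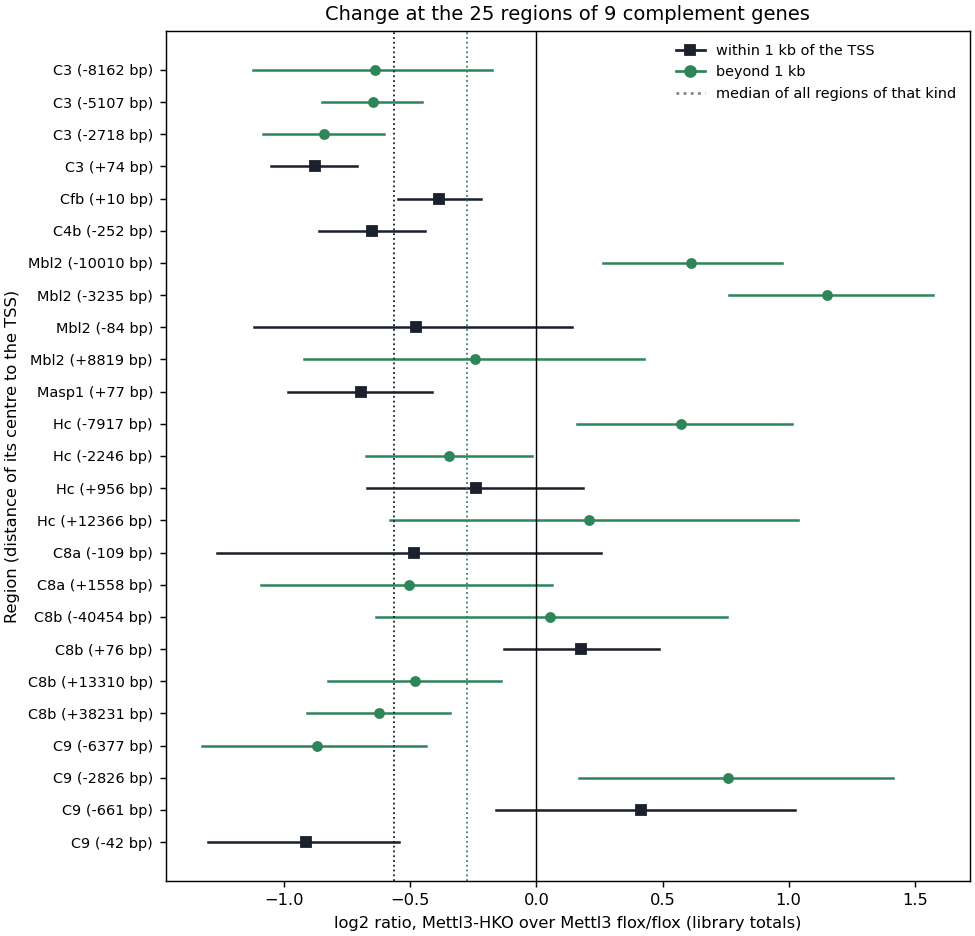
Log2 ratio, Mettl3-HKO to Mettl3 flox/flox, (x axis, library totals) for the 25 regions of the 9 genes (y axis), with 95% Clopper-Pearson intervals; squares are promoter regions, circles lie beyond 1000 bp, and dotted lines are the medians of all regions of each kind, −0.56 and −0.27. The 4 circles whose intervals lie above 0 belong to Mbl2 (2 regions), Hc and C9.

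Over the 15 regions beyond 1000 bp the log2 ratios ran from −0.87 to 1.15 with a median of −0.35, against −0.27 for all 55162 regions of this kind. Of the 15, 9 were below 0 on the scale of library totals, but 7, 3 and 5 after centring on all regions, centring on the strongest promoter regions and scaling to the reads in regions. The counting interval lay below 0 for 7 of them (42.5% of all such regions) and above 0 for 4 (24.5%), and after the other scalings below 0 for 3, 0 and 1 (26.7%, 16.4% and 21.2%) and above 0 for 4, 6 and 4 (36.6%, 47.3% and 41.6%). Of the 16 comparisons of a region with the strongest promoter region of its own gene, 5 had an interval above 0, 2 below 0 and the remaining 9 included 0. The 5 were the pair upstream of Mbl2, the most distant region upstream of Hc and the pair upstream of C9 nearest to its TSS, and the 2 were those in C8b. The pair of C9 had a peak in Mettl3-HKO only, which favours ratios above 0. The intervals of the 16 comparisons are not adjusted for their number, and the like shares over all genes were not computed. Over all genes, regions beyond 1000 bp had a higher median log2 ratio than promoter regions (−0.27 against −0.56). Of all 25 regions, 16 had a peak in both libraries, 5 only in Mettl3 flox/flox and 4 only in Mettl3-HKO. In Mettl3 flox/flox a peak was called at 21 of the 25, beside 54621 of all 69549 regions. In Mettl3-HKO it was called at 20 of the 25, beside 57848 of all 69549.

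**Figure D3:**
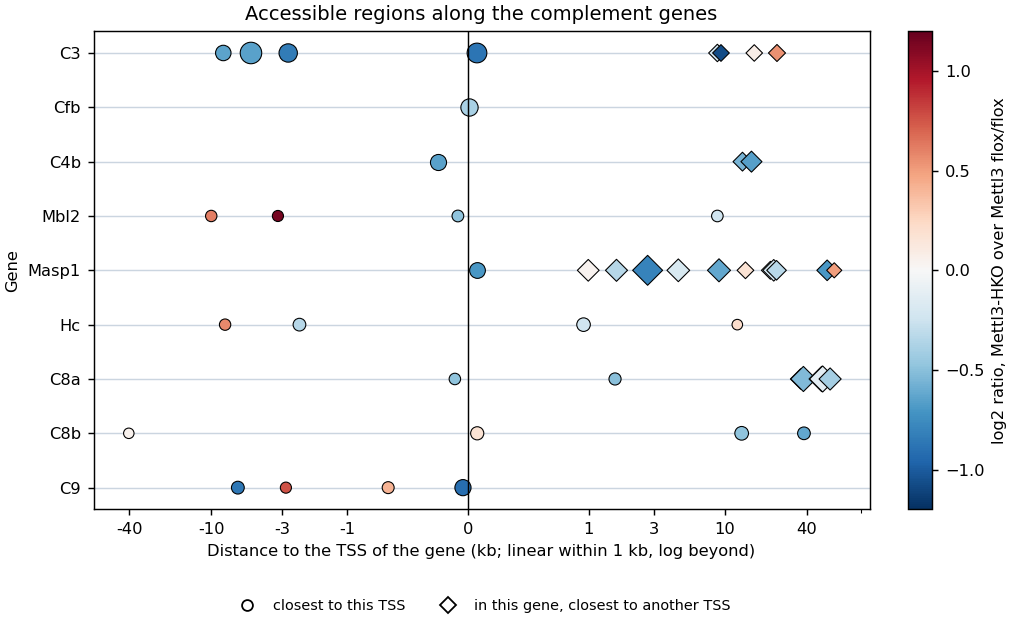
Position of each region relative to the TSS of the gene (x axis in kb, linear within 1 kb and logarithmic beyond) for the 9 genes (y axis); colour gives the log2 ratio, Mettl3-HKO to Mettl3 flox/flox, on the scale of library totals, marker area grows with the RPKM in Mettl3 flox/flox, and diamonds are the regions inside a gene that were closest to another TSS. All circles of C3 are blue (from −0.88 to −0.64, of which the last turns above 0 with the strongest promoter regions as the centre), whereas Mbl2, Hc and C9 each have a red region upstream (from 0.42 to 1.15).

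In addition to the regions assigned to them, 25 regions lay in C3, C4b, Masp1 or C8a but were closest to the TSS of another gene. Their median log2 ratio was −0.23, with 18 below 0 on the scale of library totals and 9, 5 and 8 after the other scalings. Of all regions beyond 1000 bp, 59.8%, 45.7%, 33.7% and 39.9% were below 0 in the same order, and 24 of the 25 lay beyond 1000 bp of the closest TSS. Of these 24, the counting interval lay below 0 for 11 and above 0 for 3 on library totals, beside 42.5% and 24.5% of all regions beyond 1000 bp. In C3, a region around exons 20 and 21 had 66 and 34 counts, giving a log2 ratio of −1.07 (interval −1.73 to −0.47), and the region at the 3′ end of the gene had 76 and 123, giving a log2 ratio of 0.55 (interval 0.13 to 0.99). The 3′ end of C3 therefore differed in direction from its promoter under each scaling.

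Ratios in this pair of libraries moved with signal. The median over promoter regions went from 0.15 in the 10% with the weakest signal to −0.65 in the 10% with the strongest, and over regions beyond 1000 bp from 0.86 to −0.67. Read against regions of like signal, the C3 promoter at −0.88 stood below a median of −0.64 and Cfb at −0.39 above it. The C9 TSS region at −0.91 stood below −0.41, the upstream C9 promoter region at 0.42 above −0.18, and the C9 region 2826 bp upstream at 0.76 above −0.0030. The counting intervals of C4b, Masp1, Hc, Mbl2 and C8a included the medians for their signal, which were −0.62, −0.53, −0.41, −0.18 and 0.15.

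**Figure D4:**
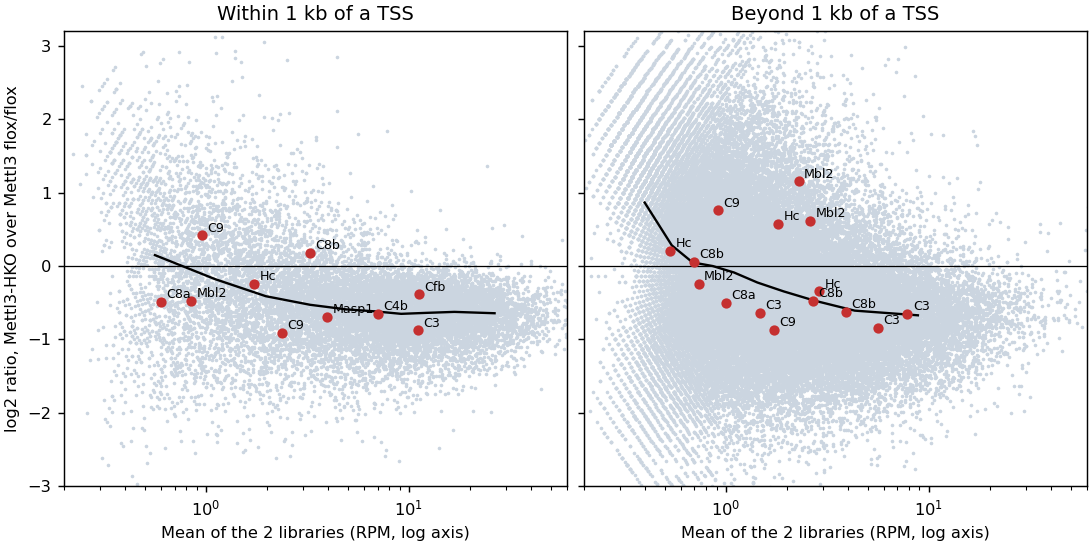
Log2 ratio, Mettl3-HKO to Mettl3 flox/flox, on the scale of library totals (y axis, shown from -3 to 3.2) against the mean RPM of the 2 libraries (x axis, logarithmic, shown from 0.2 to 60) for promoter regions on the left and regions beyond 1000 bp on the right; grey points are all regions, black lines join the medians of bins that each hold 10% of the regions by signal, and red points are the complement genes. The Mbl2 regions upstream, at 1.15 and 0.61, lie above the line, whose value in their bin is −0.48.

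Of 41 other complement genes, 26 had a promoter region, 31 regions in all, with a median log2 ratio of −0.38. Of the 31, 23 were below 0 on the scale of library totals and 16, 12 and 15 after the other scalings (83.9%, 66.4%, 41.7% and 55.0% of all promoter regions). On library totals 5 were at least 2-fold lower (16.3% of all promoter regions) and 4 at least 2-fold higher (4.07%). The share that was 2-fold lower was thus near that of all promoter regions. The 4 were C1qa (8 and 40 counts), C1qb (30 and 71), C1qc (19 and 60) and C1s2 (5 and 34), with log2 ratios of 2.05, 1.08, 1.47 and 2.41. C1qa, C1qb and C1qc encode the chains of C1q, the recognition unit of the classical pathway, which macrophages make. C1s2 is a near copy of C1s1, a C1 protease gene, whose start had 152 and 114 counts, so reads at the pair are less certain. The other scalings raise every ratio and gave 4, 5 and 5 regions at least 2-fold higher (6.90%, 9.86% and 8.33% of all promoter regions), of which the fifth was that of C3ar1, the receptor gene for C3a, with 19 and 30 counts.

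The 5 regions that were at least 2-fold lower were 2 of C1ra, a C1 protease gene, 1 of Masp2 and those of Vtn and Cpn2. Vtn, which encodes the terminal pathway inhibitor vitronectin, had the lowest ratio, −1.61 (interval −1.93 to −1.32) with 339 and 121 counts. Cpn2, which encodes the regulatory subunit of carboxypeptidase N, had 311 and 149 counts and a log2 ratio of −1.19. After the other scalings 1, 0 and 1 of the 31 were at least 2-fold lower, beside 5.005%, 1.99% and 3.15% of all promoter regions. Of 13 promoter regions of inhibitor genes 11 were below 0 on the scale of library totals and 7, 5 and 6 after the others, beside 83.9%, 66.4%, 41.7% and 55.0% of all promoter regions. Serping1, which encodes C1 inhibitor, stood at −0.99 with 917 and 506 counts, below 0 under each scaling. Cfi, the factor I gene, stood at 0.019 and Cd55 at 0.33. Among the terminal components, C8g, the third chain of C8, had 755 and 437 counts and a log2 ratio of −0.92 (interval −1.10 to −0.75), while C6 had 390 and 485 and a log2 ratio of 0.18 (interval −0.017 to 0.37). The C8 chain genes thus had promoter ratios of −0.92, −0.49 and 0.18 for C8g, C8a and C8b, where the interval of C8g did not overlap that of C8b.

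**Figure D5:**
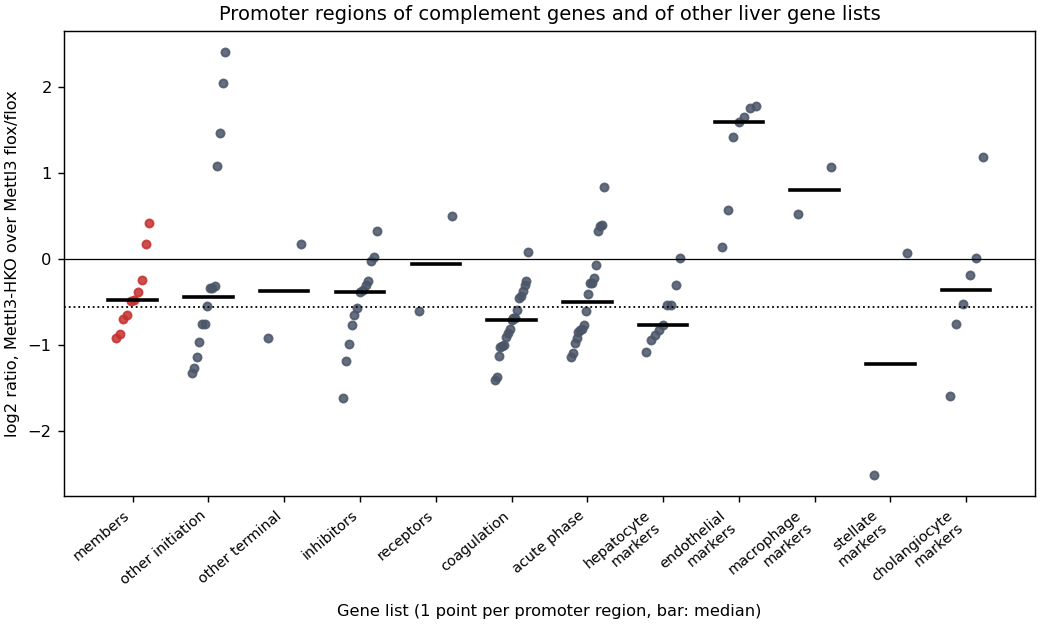
Log2 ratio, Mettl3-HKO to Mettl3 flox/flox, on the scale of library totals (y axis) for each promoter region (point) of the 9 complement genes, the other complement genes by role, and lists of coagulation, acute phase and cell type marker genes (x axis); bars are medians and the dotted line is the median of all promoter regions, −0.56. The 9 complement genes (median −0.48) lie between the acute phase genes (−0.50) and the inhibitors (−0.38), and endothelial markers are highest at 1.60; under other scalings all points move up together, which puts the median of the 9 genes at −0.11, 0.16 or 0.029.

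Genes of other secreted liver proteins were set beside them. The 19 promoter regions of 15 coagulation genes had a median log2 ratio of −0.71, and the 18 regions of acute phase genes had one of −0.50. On library totals 5 of the 19 and 2 of the 18 were at least 2-fold lower (16.3% of all promoter regions), which became 1, 0 and 0 of the 19 and 0 of the 18 after the other scalings (5.005%, 1.99% and 3.15% of all promoter regions). Of the acute phase regions 0 were at least 2-fold higher on library totals (4.07% of all promoter regions) and 1, 3 and 1 after the other scalings (6.90%, 9.86% and 8.33%). The coagulation median stayed below 0 under each scaling and the acute phase median moved above 0 under 2 of the 3 others. These medians were not tested against each other. The summed level of the 7 of 8 endothelial markers with a promoter region was 3.03 RPM in Mettl3 flox/flox and 7.01 RPM in Mettl3-HKO, all 7 with a log2 ratio above 0. Their 24 regions beyond 1000 bp, 17 above and 7 below 0, had summed levels of 30.4 and 34.9 RPM. The summed level of the hepatocyte list was 81.0 and 54.3 RPM, with 8 of 9 regions below 0 on library totals and 7, 5 and 7 after the other scalings. Of the macrophage list 1 of 8 genes, Cd14, had promoter regions, at 1.48 and 2.53 RPM, and of 9 macrophage regions beyond 1000 bp 5 were above and 4 below 0, at summed levels of 16.9 and 9.27 RPM. Without 1 region of Marco with 457 and 7 counts these were 8.20 and 9.13 RPM. The stellate list had 2 of 8 genes, at 13.8 and 3.05 RPM, a fall carried by Reln (690 and 132 counts), while Col1a1 had 37 and 43 counts and the 3 stellate regions beyond 1000 bp were above 0. The cholangiocyte list had 5 of 8 genes, at 17.3 and 12.6 RPM, with 4 of 6 regions below 0 on library totals and 3, 2 and 3 after the other scalings. The lymphocyte list had 0 of 8. Its 5 regions beyond 1000 bp had summed levels of 20.3 and 11.7 RPM, with 4 below 0 on library totals and 2 after each other scaling. The part of these cell types in the ratios at C1q or at the regions upstream of Mbl2, Hc and C9 was not tested.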

How the data were processed

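ATAC-seq libraries of Mettl3 flox/flox and Mettl3-HKO livers, 1 each, were compared, and groups were taken from the sample labels. According to the methods and the labels, the authors trimmed reads with skewer, aligned them with BWA to GRCm38, removed mitochondrial, improperly paired and poorly mapped reads, and called peaks per library with MACS2, keeping duplicates. How regions were merged and counted, and whether read ends were offset for Tn5, is not given in the sources used here. The deposited table holds raw read counts per region and RPM values that the authors computed as the count plus 1 per 1000000 reads of a library total. It also holds fold enrichments and log2 ratios of the authors, which were not used. The 74821 rows were reduced to 69549 distinct regions, and starts were converted to count from 1.

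Library totals were recovered from counts and RPM. Log2 ratios used 1 added count. Each interval is the exact 95% Clopper-Pearson interval of the Mettl3-HKO share of a region's counts, without the added count. Differences between 2 regions are exact conditional odds ratios, which are free of library scaling. Duplicate reads make counts less independent than these intervals assume. The median region had 85 and 81 counts. Being called means a change of at least 2-fold, with no p-value. The 9 genes, the lists of other genes and the motifs were chosen with earlier results of these data known. All regions of the 9 genes were named, all promoter regions of other complement genes could be (1 gene is not reported here), and of the remaining lists only counts, medians and ends were to be given, to which summed levels of the marker lists were added. Blank symbols were filled from gene identifiers paired in the table, which named 14588 of 27433 genes. RefSeq sequences were matched by symbol. Alternatives covered scaling, added counts, window, signal and the value per gene. Interval and ratio code was tested on simulated counts. Computation used Python 3.11.15 with scipy 1.17.1, pandas 2.3.3 and numpy 2.4.6, and plots matplotlib 3.10.9.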

Additional observations from a re-analysis of the deposited data

How the results depend on the processing

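Of the 10 promoter regions 4, and of the 15 regions beyond 1000 bp 6, changed direction with the scaling of the libraries, on which differences between regions do not depend. The median log2 ratio of the complement promoters, −0.48, became −0.11 after centring on all regions, 0.16 with the strongest 10% of promoter regions as the centre and 0.029 with reads counted in regions. That of the other complement genes, −0.38, became −0.0065, 0.26 and 0.13, and that of the regions beyond 1000 bp, −0.35, became 0.032, 0.30 and 0.17 in the same order. With the upper 50% of mean signal the complement promoters stood at −0.65 and the regions beyond 1000 bp at −0.48. A window of 500 bp, which drops Hc and the upstream C9 region, gave −0.57, and the strongest promoter region per gene gave −0.34 for the other complement genes. Chosen after seeing the data, adding the regions inside the genes but closest to another TSS gave −0.25, and leaving out Cfb, Masp1 and C4b gave −0.48. The count of promoters at least 2-fold higher went from 0 to 1 of 10 after centring on the strongest promoter regions (9.86% of all promoter regions), and that of promoters at least 2-fold lower stayed 0 under every alternative run. After centring on the strongest promoter regions and with reads in regions, single promoters changed sign to 0.16 and 0.024 (C8a), 0.26 and 0.13 (Cfb), 0.17 and 0.033 (Mbl2) and 0.40 and 0.27 (Hc), and Hc to 0.14 after centring on all regions. Summing both C9 promoter regions gave −0.52. No paired analysis was possible because each group has 1 library and the labels carry no replicate numbers, and no library could be left out. On library totals, the counting intervals of the promoters of Mbl2, Hc, C8a, C8b and of the upstream C9 region included 0.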
